A study of Mus musculus with 14 samples.

Results

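The cytosolic ribosome holds 1 large and 1 small subunit, each built from ribosomal RNA and a set of ribosomal proteins whose genes are scattered over the chromosomes. Genes were taken as members when their symbol had the form of a large subunit (Rpl) or small subunit (Rps) protein gene, with Rpsa and the stalk genes Rplp0, Rplp1 and Rplp2 added, and when their mean over the 14 liver libraries was at least 1 CPM (read counts divided by the TMM-scaled library size and brought to a common total). Such a name was carried by 89 of the 57180 genes listed, and 81 of these reached the level. By symbol, 48 were counted for the large and 33 for the small subunit. Rps4l was the member closest to the limit, at a mean of 5.74 CPM, and Rps3a2, at 0.68 CPM, was the highest of the 8 genes left out. The other genes left out were Rps12l1, Rps3a3, Rpl32l, Rpl6l, Rpl3l, Rpl39l and Rpl10l. All 81 members were among the 16201 genes tested, and the rule used no difference between genotypes.

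Whole liver was taken from mice on normal chow and carried 1 of 3 Pkd1 genotypes. Pkd1 encodes polycystin 1, a large membrane protein of the primary cilium whose loss in people leads to cystic kidneys and livers. The groups were Homo (4 livers), Het (4 livers) and their WT littermates (6 livers), and the question was how the Homo and Het livers differed from WT. Cre is named in the label of every library, WT included, so Cre is no difference between the groups as labelled. The labels do not give the Pkd1 allele, the promoter that drives Cre, litter, sex, age or batch, so which liver cells carry the altered gene is unknown. Each library carries the number of 1 mouse.

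Ribosomal proteins are for the most part needed in nearly equal amounts, since most sit once in a ribosome and unassembled copies are degraded. In mammals their messenger RNAs begin with a pyrimidine tract (the terminal oligopyrimidine or TOP motif), a C at the cap followed by further C and T bases, through which mTORC1 and the RNA-binding protein LARP1 govern translation. Control through this motif acts mainly on translation, which counts of RNA do not measure. Unbound Rpl5 and Rpl11 bind Mdm2 and so stabilise the Trp53 protein when ribosome assembly fails. In liver, ribosomes make the plasma proteins that hepatocytes secrete.

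The start regions below, from RefSeq promoters on GRCm38.p6, were chosen to show where the tract lies in members the results turn on. Each runs 5′ to 3′ on the strand of the gene from 45 bases before to 25 bases from the first listed start, and capitals mark each tract, defined as a C followed by at least 6 C or T bases, so at least 7 bases, within 20 bases on either side of the start. Rps15 (chr10:80292386-80292455, plus strand), Rpl13 (chr8:123102305-123102374, plus) and Rplp0 (chr5:115559422-115559491, plus) are among the 5 members of smallest p in Homo against WT. Rps27 (chr3:90213624-90213693, minus) and Rps27l (chr9:66946041-66946110, plus) are a pair of close relatives. Rps2 (chr17:24720018-24720087, plus), Rps10 (chr17:27635220-27635289, minus) and Rps18 (chr17:33955641-33955710, minus) lie on the chromosome of Pkd1.
Rps15: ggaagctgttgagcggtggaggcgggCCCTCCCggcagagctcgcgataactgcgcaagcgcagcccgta
Rpl13: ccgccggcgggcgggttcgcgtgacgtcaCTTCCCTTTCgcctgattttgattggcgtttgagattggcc
Rplp0: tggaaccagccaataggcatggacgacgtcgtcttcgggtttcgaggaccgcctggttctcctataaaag
Rps27: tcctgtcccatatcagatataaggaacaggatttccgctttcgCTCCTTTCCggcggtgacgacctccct
Rps27l: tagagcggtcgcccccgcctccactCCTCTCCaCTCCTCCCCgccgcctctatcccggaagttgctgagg
Rps2: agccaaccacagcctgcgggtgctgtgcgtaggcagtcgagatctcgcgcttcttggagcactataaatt
Rps10: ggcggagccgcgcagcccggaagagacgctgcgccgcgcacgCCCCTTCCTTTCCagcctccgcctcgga
Rps18: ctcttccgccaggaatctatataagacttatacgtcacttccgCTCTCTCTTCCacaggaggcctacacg

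The tract ran across the listed start in Rps27 (9 bases), Rps10 (13 bases) and Rps18 (11 bases). In Rps15 (1 tract), Rpl13 (1 tract) and Rps27l (2 tracts) it lay upstream of the listed start, and in Rplp0 and Rps2 none lay in the window. Of the 81 members 60 had an entry in the promoter table. A tract on the gene's strand lay within 20 bases of the first listed start in 31 of these 60 (51.7%), against 18.6% of all 27025 genes in the table. CTTTCC on the gene's strand, which can overlap the tract, lay in the same window of 9 members (15%), against 1.9% of all genes. Searched on both strands within 50 bases of the first listed start, CCGGAAG, a core of ETS factor sites, was in 13 members (21.7%) and 5.48% of all genes. AAGATGGC, a core of the YY1 motif, was in 4 members (6.67%) and 1.54% of all genes on the same terms. TATAAA, on either strand in the 50 bases before the start, was in 1 member (1.67%) and 3.78% of all genes. These are matches of letters at annotated starts, which need not be the starts used in liver.

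Total counts per library lay between 18573686 and 28431839 in Homo, 22833800 and 26245428 in Het, and 25238117 and 40925909 in WT. Pkd1 itself stood at 23.1 to 26.4 CPM in Homo, 28.1 to 36.7 CPM in Het and 31.4 to 37.7 CPM in WT livers, so each Homo library lay below each WT library. The counts cover the whole gene, and in bulk tissue fewer cells of a type and less RNA per cell cannot be told apart. Of 8 hepatocyte markers 7 were found by symbol and all 7 were measured. The fold over WT was above 1 in 4 of the 7 in Homo and in 3 in Het, and 0 passed at an adjusted p under 0.05. Hnf4a, a hepatocyte transcription factor, averaged 513 ± 57.8 CPM in Homo, 510 ± 51.4 CPM in Het and 533 ± 56.1 CPM in WT livers (SD, n = 4, 4 and 6). Tat, another of these markers, ran between 320 and 2480 CPM in Homo, 507 and 2330 CPM in Het and 536 and 1290 CPM in WT livers.

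WT 1 stood apart from the other WT libraries in the ribosomal protein genes. In 63 of the 81 members it lay outside the range of the other 5 WT livers, above it in 40 and below it in 23, while the next WT library, WT 5, was the lowest or highest of its group in 26 members. WT 1 differed from the mean of the others by more than 0.3 on the log2 scale in 27 members. Levels in WT 1 were low for Rpl24, Rps2 and Rps14 and high for Rps28, Rpl29 and Rpl37, as the plot of WT 1 against the other WT livers shows. Rpl37 had 112 CPM in WT 1 and 75.7 to 90.9 CPM in the other WT livers. Its log2 fold change in Homo against WT was -0.15 with WT 1 and -0.05 without it. The small nuclear RNA Rn7sk had 2380 CPM in WT 1 and 4950 to 7640 CPM in the other 13 libraries, and the T cell marker Cd3e had 3.93 CPM in WT 1 and 12.6 to 23.3 CPM elsewhere. WT 1 also differed over all genes tested. Its median correlation with the other libraries was 0.9776, against 0.98 to 0.9852 for the other 13. Mitochondrially encoded genes took 12.5% of its counts, against 9.83% to 11.4% in the others. The share of all genes in which WT 1 lay outside the range of the other WT livers was not counted. Over 80 members with an annotated length, the rank correlation of the WT 1 difference was -0.31 with transcript length and -0.12 with GC content, given as a description of 1 library. Values without WT 1 are given below for several named members that it moved.

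**Figure D1:**
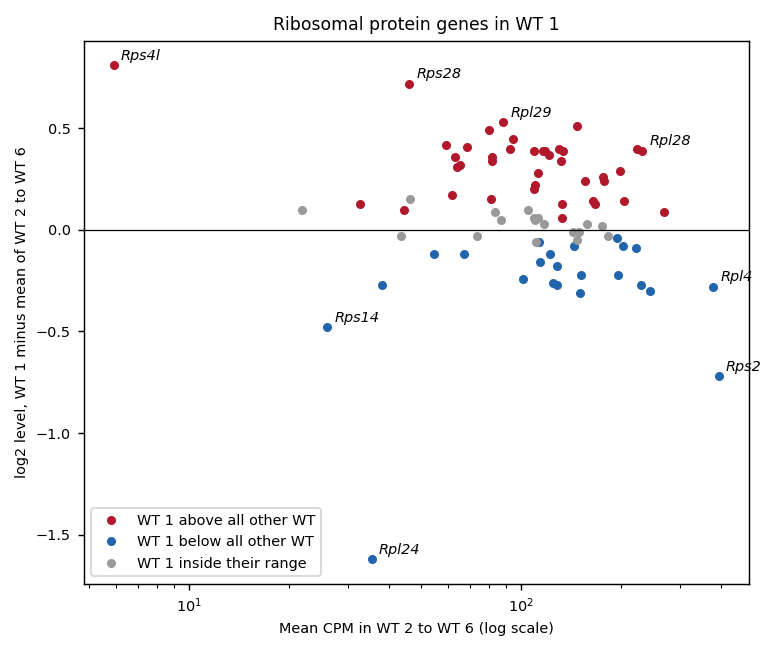
Each point is 1 ribosomal protein gene: its mean CPM in WT 2 to WT 6 on a log x axis, and on the y axis the log2 level in WT 1 minus the mean log2 level in WT 2 to WT 6. Red points (40) lie above and blue points (23) below all other WT livers, and grey points lie inside their range. Rpl24 is lowest and Rps4l, Rps28 and Rpl29 are highest.

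Ribosomal protein transcripts took between 1.04% and 1.14% of all counts in Homo, between 0.954% and 1.05% in Het and between 0.975% and 1.08% in WT livers. Among the 80 members with an annotated length, levels per length spread widely, as the plot of length-scaled levels shows. The highest was Rplp1, a stalk protein that helps recruit elongation factors, at 509 CPM per kilobase. After it came Rpl36 (364 CPM per kilobase), Rpl13 (361 CPM per kilobase), Rps2 (358 CPM per kilobase) and Rpl38 (326 CPM per kilobase). The lowest was Rps20, of the small subunit head, at 11.9 CPM per kilobase, followed by Rpl7l1 at 27.8, Rpl22l1 at 41.4, Rps14 at 44.7, Rps15a at 50.8 and Rpl24 at 52.8 CPM per kilobase. The length chosen bears on these values. Rps20 has a shortest principal transcript of 3706 bases, and Rps15a, at 50.8 CPM per kilobase on its 640 bases, would have 6.28 CPM per kilobase on its longest principal transcript of 5179 bases. Without scaling by length the highest mean belonged to Rpl4, a protein of the exit tunnel, at 373 CPM.

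**Figure D2:**
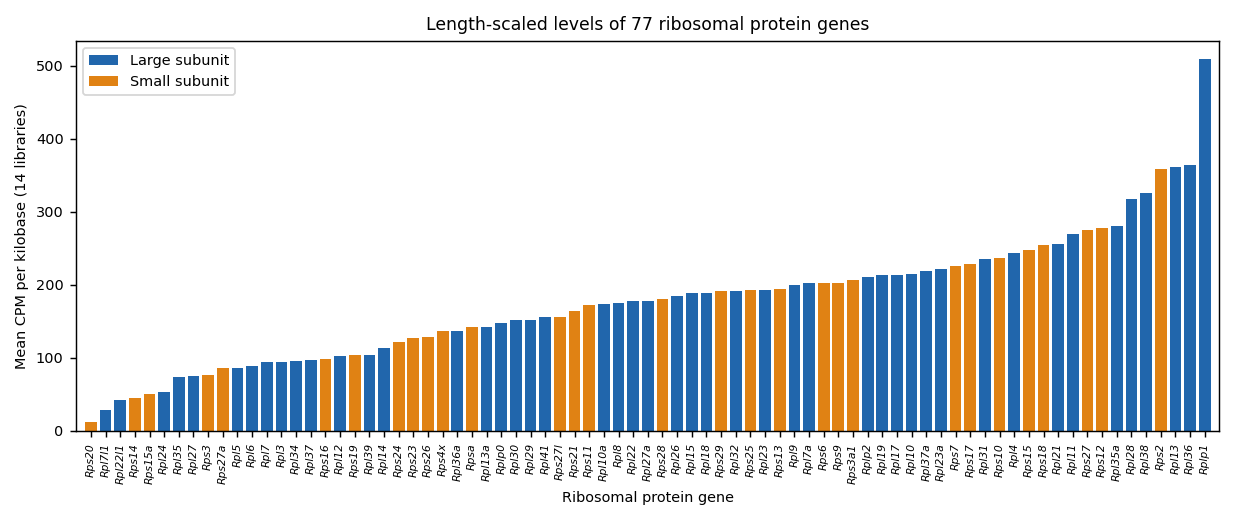
Bars give the mean level of each of 77 ribosomal protein genes over 14 libraries in CPM per kilobase of its shortest principal transcript, in rising order, with large subunit genes in blue and small subunit genes in orange. Levels run between 11.9 (Rps20) and 509 (Rplp1) CPM per kilobase. Rps4l, for which no length of a protein-coding transcript was found, is not drawn.

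Ribosomal protein genes varied less between livers of 1 genotype than most genes. The median standard deviation within groups was 0.1 on the log2 scale over the members and 0.218 over all 16201 genes tested. In 77 of 81 members the spread was below that median of all genes, and 10.1% of all genes had a spread below the median member. Genes with many counts have less counting error, so this rank is a description. The steadiest were Rpl7a (0.033), Rps3 (0.0471) and Rpl13 (0.0487). The most variable were Rps4l (0.644), Rpl24 (0.594), Rpl29 (0.327), Rps28 (0.228), Rps2 (0.213) and Rpl22l1 (0.194).

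In Homo livers most ribosomal protein genes lay a few percent above WT, and none passed the test. The fold was above 1 in 63 of 81 members (77.8%, with 50.6% of all genes tested above 1), and the median log2 fold change was 0.068, a fold of 1.05, with a median over all genes of 0.0022. It was 0.072 over the large subunit genes, 40 of 48 of them above 1, and 0.061 over the small subunit genes, 23 of 33 above 1. At an adjusted p under 0.05 (edgeR quasi-likelihood test, Benjamini-Hochberg over all genes) 0 of 81 members were called, while 36 of all genes (0.222%) were. The smallest adjusted p of a member was 0.966, DESeq2 called 0 members, and 6 members (7.41%) had an unadjusted p under 0.05, against 4.73% of all genes. That number was 1 without Homo 3, 2 without WT 5, 3 without WT 3 or WT 4, 9 without WT 1 and 10 without Homo 2. The 95% interval of the fold lay within 0.8 to 1.25 in 68 of 81 members, against 33.9% of all genes. It lay within a 1.5-fold change either way in 79, the exceptions being Rpl24 and Rps4l. Such shares depend on the width of the intervals, and the median standard error was 0.0713 over the members and 0.156 over all genes.

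**Figure D3:**
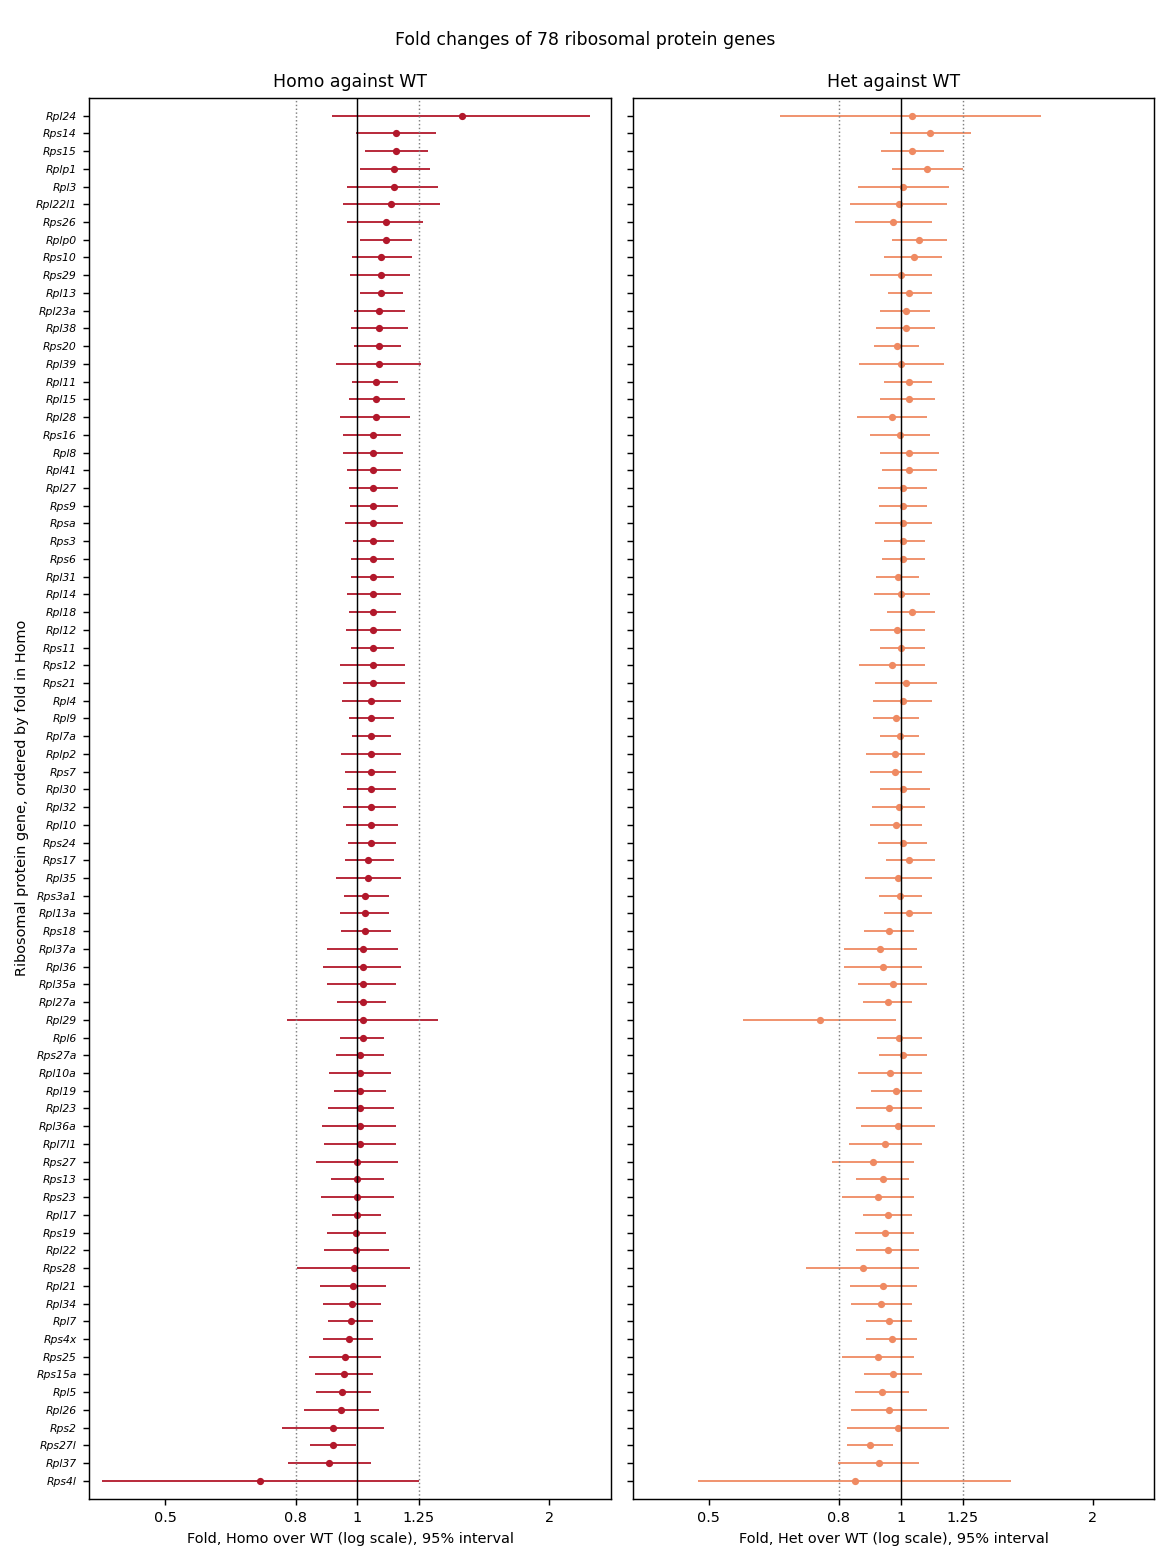
Points are the fitted folds of 78 ribosomal protein genes on a log scale, with 95% intervals as lines, for Homo over WT (left) and Het over WT (right); rows are in the order of the Homo fold. Solid lines mark a fold of 1 and dotted lines 0.8 and 1.25. Most Homo points lie right of 1, Het points lie on both sides, and Rps4l, Rpl24 and Rpl29 have the widest intervals in both panels.

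The shift was of the size of the spread between livers. Each member's log2 level was set against the mean of the 3 group means, and the median over the 81 members was then taken in each liver. It was 0.039, -0.009, 0.109 and 0.020 in Homo 1 to 4, and 0.024, -0.067, -0.023 and -0.043 in Het 1 to 4. In WT it ran between -0.071 and 0.054 with a median of -0.025. The 3 groups overlapped, Homo 3 was the highest of all livers, and the pooled standard deviation within groups was 0.0472. In Homo 3, 73 of 81 members lay above their mean, in Homo 1, 61, in Homo 4, 47, and in Homo 2, 31. Of the WT livers, WT 2 had 52 and WT 1 48 members above the mean, and WT 3 had 13. Without Homo 3 the median log2 fold change of Homo against WT was 0.045, with 53 members above 1, and without WT 1 it was 0.073, with 68 above 1.

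**Figure D4:**
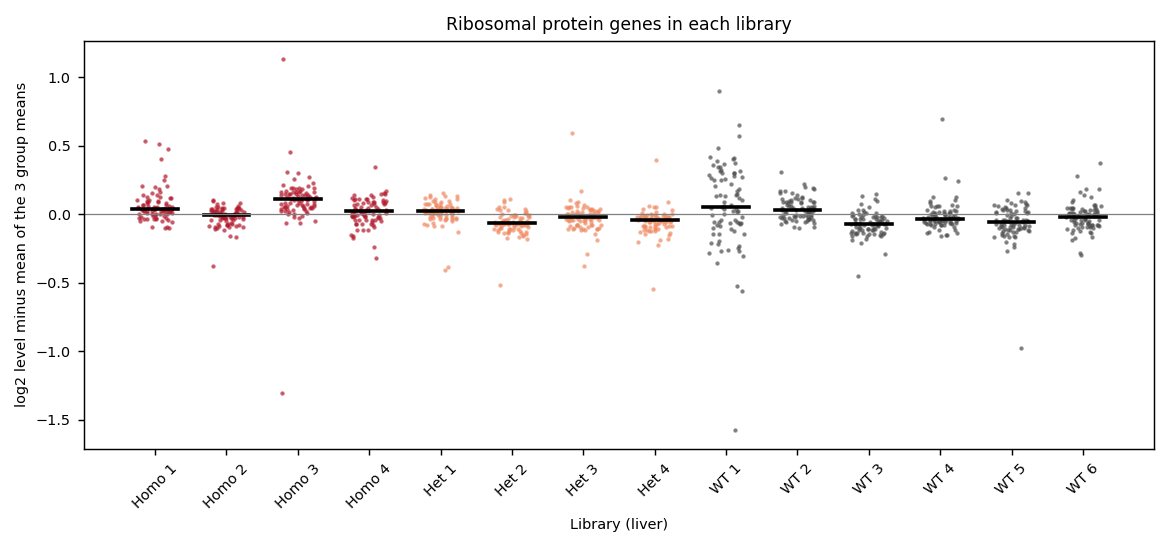
Each dot is 1 ribosomal protein gene in 1 liver, as its log2 level minus the mean of the 3 group means (y axis); black bars are medians over the 81 genes. Homo livers (red) have medians between -0.009 and 0.109, Het livers (orange) between -0.067 and 0.024 and WT livers (grey) between -0.071 and 0.054, and the dots of WT 1 are the most widely scattered.

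Rpl13 (ENSMUSG00000000740, chromosome 8), a large subunit protein, had 292, 288, 306 and 301 CPM in Homo livers, and between 259 and 286 CPM with a median of 272 CPM in WT livers. The groups did not overlap, and the exact permutation p of 0.00476 is the smallest that 4 against 6 livers allow. Its fold of 1.09 had a 95% interval of 1.01 to 1.18 (edgeR adjusted p = 0.998). Every Homo liver lay above every WT liver in 1 more member, Rpl7a, a large subunit protein, which had 189, 191, 196 and 190 CPM in Homo livers and between 175 and 186 CPM in WT livers (fold 1.05, exact permutation p = 0.00476). These 2 were 2.47% of the members, and 0.735% of all genes separated that way. Rpl7a was also the steadiest member within groups, so a small difference separated it. In no member did every Homo liver lie below every WT liver, and 0.42% of all genes did.

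Rps15, a protein of the small subunit head, had 122, 126, 154 and 137 CPM in Homo livers, and between 107 and 126 CPM with a median of 118 CPM in WT livers. Homo 3 and Homo 4 lay above all WT livers, and the other 2 lay in the WT range. The log2 fold change was 0.20 (SE 0.0759, fold 1.15, edgeR unadjusted p = 0.0177, adjusted p = 0.976; exact permutation p = 0.0143).

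The stalk of the large subunit, the arm that engages translation factors, is formed by Rplp0 at its base with Rplp1 and Rplp2 bound to it. Rplp0 had 211, 200, 230 and 206 CPM in Homo livers, and between 167 (WT 1) and 207 CPM with a median of 191 CPM in WT livers (fold 1.11, edgeR unadjusted p = 0.0385, adjusted p = 0.998). Rplp1 had 272, 259, 305 and 249 CPM in Homo livers, and between 199 (WT 1) and 266 CPM with a median of 236 CPM in WT livers (fold 1.14, edgeR unadjusted p = 0.0426, adjusted p = 0.998). For both genes the groups overlapped and WT 1 was the lowest liver. Without WT 1 the log2 fold change was 0.11 in place of 0.15 for Rplp0 (edgeR unadjusted p = 0.0726), and 0.14 in place of 0.19 for Rplp1 (unadjusted p = 0.0839). Rplp2 averaged 91.9 ± 8.43 CPM in Homo and 87.7 ± 5.86 CPM in WT livers (SD, n = 4 and 6), a fold of 1.05 (95% interval 0.943 to 1.17). Rpsa, a small subunit protein that shares sequence with the bacterial S2 family, had 216 to 250 CPM in Homo livers and 189 to 233 CPM in WT livers, the lowest being WT 1, at a log2 fold change of 0.09 with WT 1 and 0.04 without it.

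Rps27l was the member with the smallest p among those lower in Homo. It is a close relative of Rps27 and a target of Trp53. Rps27l (ENSMUSG00000036781, chromosome 9) had 77.4, 77, 76.3 and 71.1 CPM in Homo livers, and between 75.6 and 89.7 CPM with a median of 81.7 CPM in WT livers. The groups overlapped only through WT 6, the lowest WT liver, and WT 1 was the highest. The log2 fold change was -0.13 (SE 0.0561, fold 0.915, edgeR unadjusted p = 0.0382, adjusted p = 0.998; exact permutation p = 0.0333), and -0.10 without WT 1 (unadjusted p = 0.0681).

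In Het livers the ribosomal protein genes lay on both sides of WT, and none passed. The fold was above 1 in 32 of 81 members (39.5%, with 50% of all genes above 1), the median log2 fold change was -0.014, and the median over all genes was -0.0001. It was -0.013 for the large and -0.016 for the small subunit genes. Of the members 0 were called, and of all genes 9 (0.0556%). The smallest adjusted p of a member was 0.993 (edgeR), DESeq2 called 0, and 2 members (2.47%) had an unadjusted p under 0.05, against 4.67% of all genes. The interval lay within 0.8 to 1.25 in 73 members, against 33.5% of all genes, and within 1.5-fold in all but Rpl29, Rps4l and Rpl24. Median standard errors were 0.0714 over the members and 0.157 over all genes. This comparison shares its WT livers with Homo against WT.

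Rps27l was lower in every Het liver than in any WT liver, at 72.5, 73.2, 75 and 74.6 CPM in Het. It was the only member of which this held (1.23% of members, 0.506% of all genes), and WT 6, at 75.6 CPM, was the closest WT liver. The log2 fold change was -0.16 (SE 0.0561, fold 0.896, edgeR unadjusted p = 0.0126, adjusted p = 0.993; exact permutation p = 0.0143). In no member was every Het liver above every WT liver, and 0.697% of all genes were.

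Rpl29, a large subunit protein, had 63.7, 59, 69 and 90.1 CPM in Het livers, and between 61.8 and 126 CPM with a median of 95.8 CPM in WT livers. WT 3 lay below 3 of the 4 Het livers, so the groups overlapped. The log2 fold change was -0.42 (SE 0.187, fold 0.746, 95% interval 0.566 to 0.984, edgeR unadjusted p = 0.0395, adjusted p = 0.998), and the exact permutation p was 0.0905. Without WT 1, the highest WT liver, it was -0.33 (unadjusted p = 0.0892, edgeR).

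Between Homo and Het livers, 75 of 81 members lay above 1 in Homo (92.6%, with 50.5% of all genes above 1), at a median log2 fold change of 0.073, a fold of 1.05, and a median over all genes of 0.0018. Of the members 0 were called, and of all genes 5 (0.0309%), with 0.958 as the smallest adjusted p of a member (edgeR) and 0 members called by DESeq2. An unadjusted p under 0.05 was reached by 1 member, Rpl29 (1.23%), against 5.1% of all genes. The interval lay within 0.8 to 1.25 in 67 members, against 28.9% of all genes, at median standard errors of 0.0783 and 0.172. With library totals as the only scaling the median over all genes was 0.066 and the median over the members 0.138, so the members then lay 0.071 above all genes.

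Every Homo liver lay above every Het liver in 7 members (8.64%), Rpl7a, Rpl31, Rpl37a, Rps3, Rps7, Rps13 and Rps28, against 1.42% of all genes, and in no member did the reverse hold (1.52% of all genes). Each of the 7 had an exact permutation p of 0.0286, the smallest that 4 against 4 livers allow. Rps3, a protein at the entry of the messenger RNA channel, had 150, 146, 159 and 149 CPM in Homo livers and 144, 144, 145 and 146 CPM in Het livers. Rps7 had 191, 189, 192 and 193 CPM in Homo livers and 188, 175, 181 and 174 CPM in Het livers. In both genes the nearest livers of the 2 groups were separated by less than the range within a group. Folds of the 7 members ran between 1.05 and 1.13, and WT livers overlapped with the Homo livers in all of them but Rpl7a. All of them but Rps28 were named after their values were seen.

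**Figure D5:**
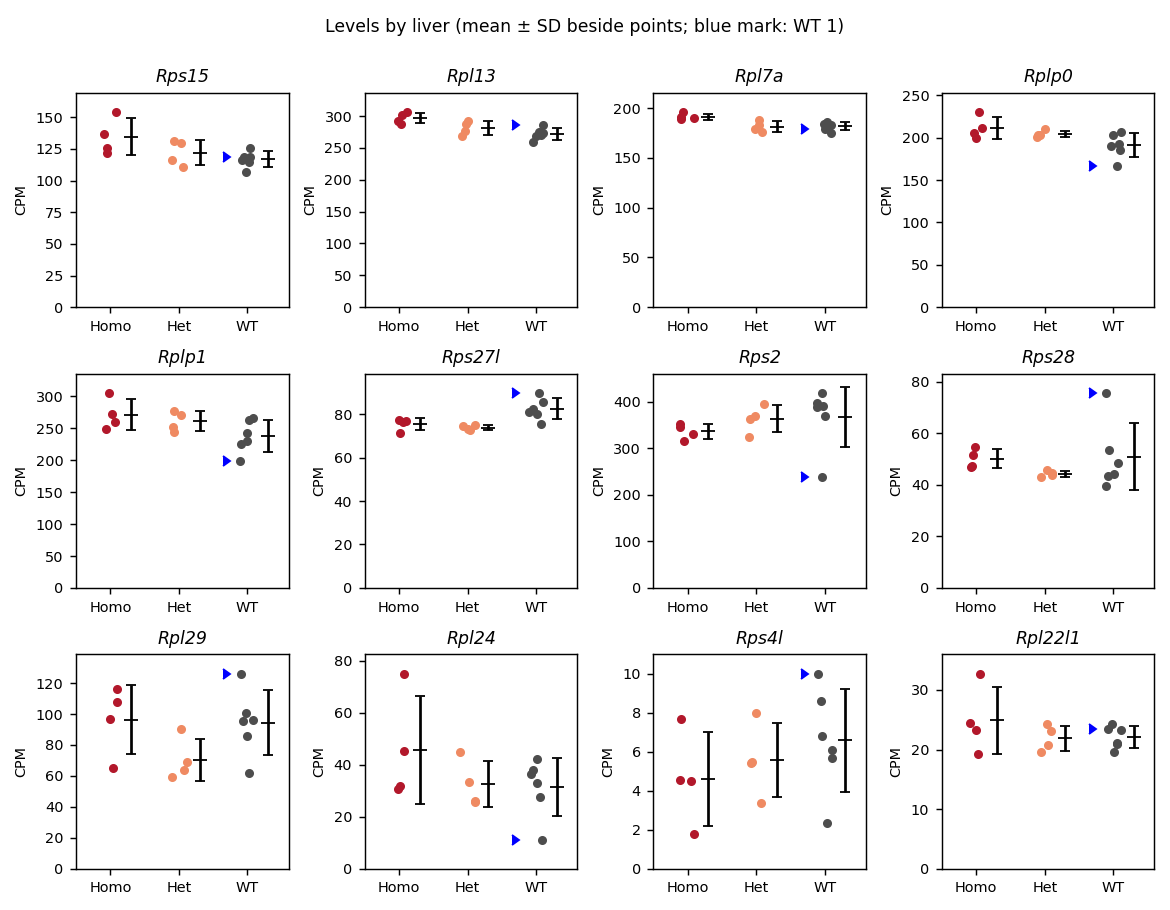
Points are the CPM of single livers for 12 ribosomal protein genes, by genotype (Homo, Het, WT), on linear axes that start at 0, with mean ± SD as bars beside the points and WT 1 marked in blue. In the top row and Rplp1 the Homo mean lies above the WT mean, and Rps27l shows Het livers below all WT livers. In Rps2 and Rps28 the widest gap is between WT 1 and the other WT livers. In Rpl24 Homo 3 is the highest and WT 1 the lowest of all livers.

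Rps4l, Rpl24 and Rpl29 had the widest spread between livers of 1 genotype. Rpl24, a large subunit protein at a bridge between the subunits and named here after its values were seen, had 45.1, 31.7, 74.9 and 30.5 CPM in Homo, 25.8, 33.3, 26 and 44.8 CPM in Het and between 11.1 (WT 1) and 42 CPM in WT livers. Its log2 fold change in Homo over WT of 0.54 had an SE of 0.316 (edgeR adjusted p = 0.998), with Homo 3 the highest and WT 1 the lowest of all livers. Without WT 1 the log2 fold change of Rpl24 was 0.37 in Homo and -0.13 in Het, in place of 0.05 in Het. Rpl29 had 96.9, 65, 116 and 108 CPM in Homo livers, so its Homo and Het livers overlapped through Homo 2 (log2 0.45, SE 0.203, edgeR unadjusted p = 0.0422, adjusted p = 0.958).

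Some members have a close relative, and some such relatives can take the place of a ribosomal protein. Rps4l, the relative of the X-linked Rps4x, had 7.66, 4.54, 1.78 and 4.5 CPM in Homo, 5.43, 5.5, 8 and 3.36 CPM in Het and between 2.36 and 10 CPM in WT livers. Its log2 fold change in Homo against WT was -0.51 (SE 0.386, edgeR adjusted p = 0.998) with WT 1 and -0.35 without it. In Het against WT it was -0.24 with WT 1 and -0.08 without it. Rps4x had 125 to 134 CPM in Homo, 121 to 139 CPM in Het and 123 to 145 CPM in WT livers, so Rps4l stayed far below it in every liver. Rpl22l1, the relative of Rpl22, had 32.7, 24.4, 23.3 and 19.2 CPM in Homo, 24.2, 20.8, 23.1 and 19.6 CPM in Het and between 19.6 and 24.3 CPM in WT livers, and Homo 1 was the only liver above 25 CPM. The log2 ratio of Rpl22l1 to Rpl22 was -1.35 in Homo 1 and between -2.05 and -1.84 in the other Homo livers, against -1.93 to -1.78 in Het and -2.14 to -1.79 in WT livers. Ratios to the relative were compared for Rpl22l1, Rps27l, Rps4l and Rpl7l1 in 3 comparisons each. The smallest of the 12 exact permutation p was 0.205, for Rps27l over Rps27 in Homo against WT (log2 ratio -0.37 ± 0.069 in Homo and -0.23 ± 0.18 in WT, SD, n = 4 and 6), and all 12 adjusted p were 0.881. Rps27 itself had 95, 98.8, 105 and 91 CPM in Homo and between 84.5 and 122 CPM (WT 1) in WT livers, at a log2 fold change of 0.00 with WT 1 and 0.07 without it.

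Members with known roles outside the ribosome or in disease did not pass the test. Rpl5 had a fold of 0.948 in Homo (95% interval 0.86 to 1.05) and 0.934 in Het (0.847 to 1.03), and Rpl11 one of 1.07 (0.981 to 1.16) in Homo and 1.03 (0.942 to 1.12) in Het. Rps6, the substrate of S6 kinase downstream of mTORC1, had 178, 184, 184 and 194 CPM in Homo, 186, 171, 180 and 172 CPM in Het and 170 to 183 CPM in WT livers (fold 1.06 in Homo, exact permutation p = 0.0286 and edgeR adjusted p = 0.998). Rps19, mutated in Diamond-Blackfan anaemia in people, had a fold of 0.997 in Homo (0.895 to 1.11) and 0.944 in Het (0.847 to 1.05). Without WT 1 the log2 fold change in Homo was -0.03 in place of -0.08 for Rpl5 and 0.05 in place of -0.00 for Rps19.

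Of the other members with a high or low level, Rpl4 had 412, 373, 386 and 374 CPM in Homo, 366, 358, 369 and 384 CPM in Het and between 311 (WT 1) and 398 CPM with a median of 371 CPM in WT livers (log2 fold change in Homo 0.07 with WT 1 and 0.03 without it). Rps20 had 46.6, 43.2, 49.5 and 46.7 CPM in Homo, 44.3, 42.1, 41.7 and 42.6 CPM in Het and between 39.8 and 45.6 CPM in WT livers. In each of these genes the 3 groups overlapped. Rps14, a small subunit protein, had 32.6, 25.5, 29.4 and 26.6 CPM in Homo, 28.3, 27.6, 27.4 and 27.2 CPM in Het and between 18.5 (WT 1) and 27.7 CPM in WT livers. Its log2 fold change in Homo was 0.20 with WT 1 and 0.13 without it, and in Het 0.16 with WT 1 and 0.08 without it (edgeR adjusted p between 0.821 and 0.998). Rps26, which contacts messenger RNA near the exit, had 86.2, 89.4, 107 and 93.7 CPM in Homo, 84, 80.5, 90.3 and 76.4 CPM in Het and between 73.7 and 103 CPM (WT 1) in WT livers. Its log2 fold change in Homo was 0.15 with WT 1 (edgeR unadjusted p = 0.137) and 0.21 without it (unadjusted p = 0.0197, adjusted p = 0.748). Rpl39, a small protein of the exit tunnel, had 62.7 to 74.8 CPM in Homo, 58.6 to 70.2 CPM in Het and 51.8 to 78.8 CPM (WT 1) in WT livers, at a log2 fold change in Homo of 0.11 with WT 1 and 0.19 without it (unadjusted p = 0.0453, adjusted p = 0.783, edgeR).

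Pkd1 lies on chromosome 17, where 28 of 753 tested genes were called in Homo against WT, against 6 of 14857 on other chromosomes and 2 of 591 with no place in the annotation, and 7 ribosomal protein genes share that chromosome. None of the 7 was called in any comparison. Rps2, a protein near the entry of the messenger RNA channel, is 7 tested genes away from Pkd1 in the gene order, and of its 20 nearest tested neighbours Pkd1, Gfer and Meiob were called. Rps2 (ENSMUSG00000044533) had 346, 316, 353 and 331 CPM in Homo, 364, 325, 396 and 369 CPM in Het and 239, 397, 392, 419, 369 and 390 CPM in WT 1 to 6. All Homo livers lay below WT 2 to 6, and WT 1 lay below all other livers. The log2 fold change in Homo was -0.13 (SE 0.123, edgeR unadjusted p = 0.316, adjusted p = 0.998) with WT 1 and -0.23 (unadjusted p = 0.00521, adjusted p = 0.58) without it.

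The other chromosome 17 members were Rps10, Rps18 and Rps28, with small subunit symbols, and Rpl10a, Rpl36 and Rpl7l1, with large subunit symbols. Of the 20 nearest tested neighbours of each, 0 were called in Homo. Rps10 had 121, 118, 131 and 124 CPM in Homo livers and between 103 and 128 CPM in WT livers (fold 1.09, 95% interval 0.982 to 1.22), the highest WT liver being WT 1. Its log2 fold change was 0.13 with WT 1 (edgeR unadjusted p = 0.0971) and 0.17 without it (unadjusted p = 0.0257, adjusted p = 0.768). Rps18, Rpl10a, Rpl36 and Rpl7l1 had folds in Homo between 1.01 and 1.03, and without WT 1 their log2 fold changes were 0.04, 0.09, 0.10 and -0.03. Rps28, a short protein at the messenger RNA exit, had 46.9, 47.4, 54.7 and 51.7 CPM in Homo, 45.8, 43.2, 44.5 and 43.7 CPM in Het and between 39.7 and 75.6 CPM (WT 1) in WT livers. Its log2 fold change in Homo was -0.02 with WT 1 and 0.13 without it, and in Het -0.20 with WT 1 and -0.05 without it.

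Other genes of translation were counted from fixed lists. Of 21 translation factors and other genes of the TOP class, 0 were called in Homo or Het against WT, at median log2 fold changes of 0.02 in Homo and -0.00 in Het, and 13 and 9 of them were above 1. Eef1d, a subunit of the elongation factor 1 complex, averaged 55.3 ± 4.7 CPM in Homo and 50.6 ± 1.83 CPM in WT livers (SD, n = 4 and 6, edgeR adjusted p = 0.998). Of 45 mitochondrial ribosomal protein genes, 0 were called, with medians of 0.00 in Homo and -0.03 in Het. Of 20 genes of mTORC1 and TOP control 0 were called in either genotype, with 9 above 1 in Homo and 8 in Het.

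Of 42 genes of ribosome assembly 1 was called in Homo against WT, Riok2, a kinase of the last steps of small subunit maturation. Riok2, which lies on chromosome 17, averaged 12.7 ± 1.19 CPM in Homo, 19.6 ± 1.06 CPM in Het and 25.4 ± 1.56 CPM in WT livers (SD, n = 4, 4 and 6). It fell in Homo against WT (log2 -1.0, edgeR adjusted p = 2.58e-06) and against Het (log2 -0.62, edgeR adjusted p = 0.00636), and in Het against WT had a log2 fold change of -0.37 (edgeR adjusted p = 0.0933). Ranges did not overlap between any pair of genotypes. The median of the 42 genes was -0.01 in Homo, with 18 above 1, and -0.08 in Het, with 10 above 1. Npm1, a nucleolar chaperone, had 94.6 ± 4.8 CPM in Homo, 86.8 ± 3.92 CPM in Het and 95 ± 4.25 CPM in WT livers, with no call.

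Of 13 measured genes of the Trp53 response to ribosome assembly failure 0 were called, with 11 above 1 in Homo and 6 in Het. Cdkn1a, which halts the cell cycle, ran between 0.776 and 12.2 CPM in Homo, between 0.543 and 7.61 CPM in Het and between 0.827 and 1.72 CPM in WT livers. Markers of other liver cells were also counted. Of 10 Kupffer cell markers 9 were above 1 in Homo against WT, and their summed level was 255 to 275 CPM in Homo, 213 to 261 CPM in Het and 218 to 261 CPM in WT livers. Of 11 measured lymphocyte markers 10 were above 1 in Homo, at summed levels of 44.6 to 53.8 CPM in Homo, 43.4 to 47.3 CPM in Het and 36.4 to 42.5 CPM in WT livers. Above 1 in Homo were also 7 of 8 sinusoidal endothelial, 5 of 9 stellate, 4 of 6 cholangiocyte, 1 of 4 erythroid and 0 of 2 neutrophil markers that could be tested. None of these markers was called in Homo against WT. No Kupffer or lymphocyte marker was called, and none was at 0 in all 14 libraries. The part of these cells in the levels of ribosomal protein genes was not tested.

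Many processed copies of ribosomal protein genes lie in the mouse genome, so reads can be divided between a gene and its copies. Of the members' values 88% were not whole numbers (tolerance 0.01), against 7.3% in the whole table, and 77 of 81 members had such values. Only rows with -ps in their symbol were counted as copies, and copies under other names were not counted. The counts of these -ps rows, which are not among the members, came to 0.639% to 0.798% of the members' counts in Homo, 0.675% to 0.83% in Het and 0.684% to 0.822% in WT livers. Rpl10 was the only member whose -ps copies had counts equal to more than 5% of its own, at 21.8%. These shares do not bound the uncertainty of single members, since reads of a copy can also be assigned to the member. Adding the counts of the -ps copies to their members left 0 members called in each comparison.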

How the data were processed

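RNA was measured by sequencing in 14 mouse livers (Homo 4, Het 4, WT 6). Per the labels, extraction used Trizol and a Qiagen RNeasy column and libraries came from a NuGen Ovation kit. The authors deposited estimated counts per gene, not normalized, made with STAR and Salmon on GRCm39, per the submitters' processing notes; no source used here gives the roles of these tools, their versions, the annotation or the use of strand. The deposited counts were rounded to whole numbers. No pair of libraries agreed within sampling noise (chi-square over degrees of freedom at least 15.8), so each was 1 replicate. Where nothing says that the mice came from separate litters, p-values measure the spread between these samples.

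Genes were kept with filterByExpr of edgeR 4.0.16 (count minimum 10, total minimum 15), scaled with TMM factors and fitted with all 14 libraries in a single quasi-likelihood model in R 4.3.3 (glmQLFit and glmQLFTest, two-sided). P-values were adjusted with Benjamini-Hochberg over all genes tested, with calls at an adjusted p under 0.05. Intervals are at 95%. Log2 levels of single livers were taken with a pseudocount of 0.5 CPM, and exact permutation tests over livers were two-sided. DESeq2 1.42.0 was an alternative. The fit was tested on simulated data with 200 changed genes.

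Gene order and transcript lengths came from GENCODE M21 (GRCm38) and promoters from RefSeq (GRCm38.p6), matched by symbol; the table is on GRCm39, so no gene coordinates are given. Lengths are of the shortest principal transcript among those annotated as protein-coding, and none was found for Rps4l. Members and lists were chosen with earlier results of these data known. Members named were those called, those on chromosome 17, the 5 with the smallest p in each comparison, the 3 highest and 3 lowest by CPM, the stalk genes with Rpsa, members with a close relative, and Rps6, Rps19, Rpl5 and Rpl11. Of each other list the rule named the 3 with the smallest p in Homo and in Het. Any other gene was named after its values were seen, and some that the rule names are given only in counts. A few members are not reported here by name or drawn in plots with gene names, and they remain in all counts and medians.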

Additional observations from a re-analysis of the deposited data

Results flagged for a closer look

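The levels of 30 named ribosomal protein genes, the members' share of counts and the members' library median were checked within each genotype, in 96 groups. In 7 of these, each of a named gene, a single liver lay far from the others of its genotype (Dixon's test at 95%). Chance flags about 1 group in 20, or 4.8 of 96, and genes of 1 liver are not independent. WT 1 was the liver in 6 of the 7. It was high in Rpl10a, at 157 CPM with the other WT livers between 115 and 128 CPM. It was high in Rpl22, at 105 CPM with the others between 78.5 and 85.1 CPM, and in Rps19, at 79.2 CPM with the others between 61.7 and 66.7 CPM. WT 1 was low in Rps2, at 239 CPM with the others between 369 and 419 CPM, in Rpsa, at 189 CPM with the others between 220 and 233 CPM, and in Rps14, at 18.5 CPM with the others between 24.5 and 27.7 CPM. WT 2 was high in Rps18, at 158 CPM with the other WT livers between 137 and 143 CPM.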

How the results depend on the processing

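Under each of 25 alternatives the number of ribosomal protein genes called was 0 in each comparison, and the smallest adjusted p of a member was 0.562. The median of the members was above 0 in Homo and below 0 in Het against WT in each. Homo against WT kept a median of 0.045 to 0.078 when 1 liver was left out, lowest without Homo 3. Het against WT had -0.041 to -0.005, lowest without Het 1, and Homo against Het 0.047 to 0.092. With library totals alone the median of Homo against Het was 0.138, and the median of all genes moved to 0.066. In Het against WT, 16 members were above 1 with library totals alone and 21 without Het 1. Genes called over the whole table numbered 61, 32 and 16 with DESeq2 (Homo against WT, Het against WT, Homo against Het) and 5, 4 and 1 without chromosome 17 genes. In Homo against WT they were 23 to 40 when 1 liver was left out, in Het against WT 8 to 11 and in Homo against Het 4 to 7. In Het against WT 23 genes passed without a low-count filter, and in Homo against Het 2 passed with only those groups in the fit. The replicate numbers did not pair the livers (correlations of same-numbered livers -0.08 to 0.21). With the number as a replicate block 19, 9 and 2 genes were called, and Homo against WT had a median of 0.052 with 51 members above 1. Fold changes of named members changed sign under some alternative in 8, 10 and 5 of 30 members, none of them called. The median standard error of a member's log2 fold change in Homo against WT was 0.0713.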
